A study of Mus musculus with 4 samples.

Results

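Loss of the transcription factor MIST1 was compared between 2 neighbouring cell types of the mouse stomach, asking for each gene whether the genotype difference in zymogenic (chief) cells was matched in mucous neck cells. The measure was the difference of differences: the log2 difference of MIST1-null minus wild type in zymogenic cells, less the same difference in neck cells. A value of 1 means that the null-to-wild-type ratio was 2-fold larger in zymogenic than in neck cells. Of 19938 genes read by a probe set naming 1 gene, 12935 entered because the highest of their 4 values reached an intensity of 43.7, the median of all such values. Of these, 8905 had 3 or more of the 4 values at that level and are called bright, and 4030 had only 1 or 2 values there and are called dim. The choice used brightness and not the difference, although a dim gene that entered through a single high array was bound to differ between arrays.

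The 4 groups were neck cells and zymogenic cells from wild-type mice and from MIST1-null mice, adult animals on a C57BL/6 background, and each group was 1 Affymetrix Mouse Gene 1.0 ST array. RNA came from cells cut out of frozen gastric corpus sections by laser capture microdissection, in which a laser lifts chosen cells from a section under the microscope, and was pooled over several dissections and mice to about 100 ng before amplification. The study's description names 4 wild-type and 5 null mice, with 2 caps of captured cells per mouse. Zymogenic cells were picked by their position basal to the signal of the lectin GS-II and by the lack of a parietal cell outline, so that genes of neck mucus lie close to the selection of the cells. Neither the outlining of neck cells nor the mice behind each pool is stated in the labels used here. With 1 array per group no difference has a replicate check, so none of the values below carries an SD or a p-value, and 2-fold is a rule of size.

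MIST1, encoded by Bhlha15, is a basic helix-loop-helix factor that binds E-box DNA and serves the secretory architecture of cells that store large enzyme granules. In the gastric gland, mucous neck cells secrete mucins and trefoil peptides and are held to give rise to zymogenic cells, which settle at the gland base and switch to pepsinogens and other enzymes. MIST1 is known to be abundant in mature zymogenic cells and is needed for their large granules.

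Bhlha15 itself read 59.7 in wild-type neck, 20.2 in MIST1-null neck, 149.8 in wild-type zymogenic and 22 in MIST1-null zymogenic cells. Both null arrays lay below the level of 43.7 and the wild-type zymogenic array was highest. The genotype differences were -1.56 in neck and -2.77 in zymogenic cells, which gives a difference of differences of -1.20. Since both null values are low and alike, that value follows the higher wild-type level in zymogenic cells. Whether these probes cover the deleted stretch is unknown here, so the low null values are given as measured. Median intensities of the 4 arrays lay between 37.9 and 40.9. Labelled cell types matched their defining products for neck cells, with Muc6 at 2511 and 2980.3 against 26.7 and 20.7 in zymogenic cells, and for the zymogenic enzyme Chia1, which was at least 8209 in zymogenic and at most 1806 in neck cells. The pepsinogen gene Pgc was also bright in neck cells, at 8672 and 8698. Another pepsinogen gene, Pga5, went against the zymogenic label, at 1349.5 and 1884 in neck and 31 and 20.4 in zymogenic cells.

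Among the 8905 bright genes, the difference of differences reached 2-fold above 0 in 636 (7.14%) and 2-fold below 0 in 437 (4.91%), or 12% in either direction. At 4-fold these were 44 (0.494%) and 29 (0.326%). Adding a pseudocount of 32 before the log, which damps differences at low intensity, left 234 above and 162 below at 2-fold. The median was 0.05 and the SD over genes 0.66, with 53.6% of bright genes above 0. Genotype differences alone reached 2-fold in 8.13% of bright genes in zymogenic cells and in 2.46% in neck cells. Across bright genes the 2 genotype differences, which rest on separate arrays, had a Pearson r of 0.16, given as a description since genes are not independent replicates. Bright genes at 2-fold or more in both cell types numbered 14 higher in both, 19 lower in both and 8 in opposite directions, 6 of which were higher in null zymogenic and lower in null neck cells.

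**Figure D1:**
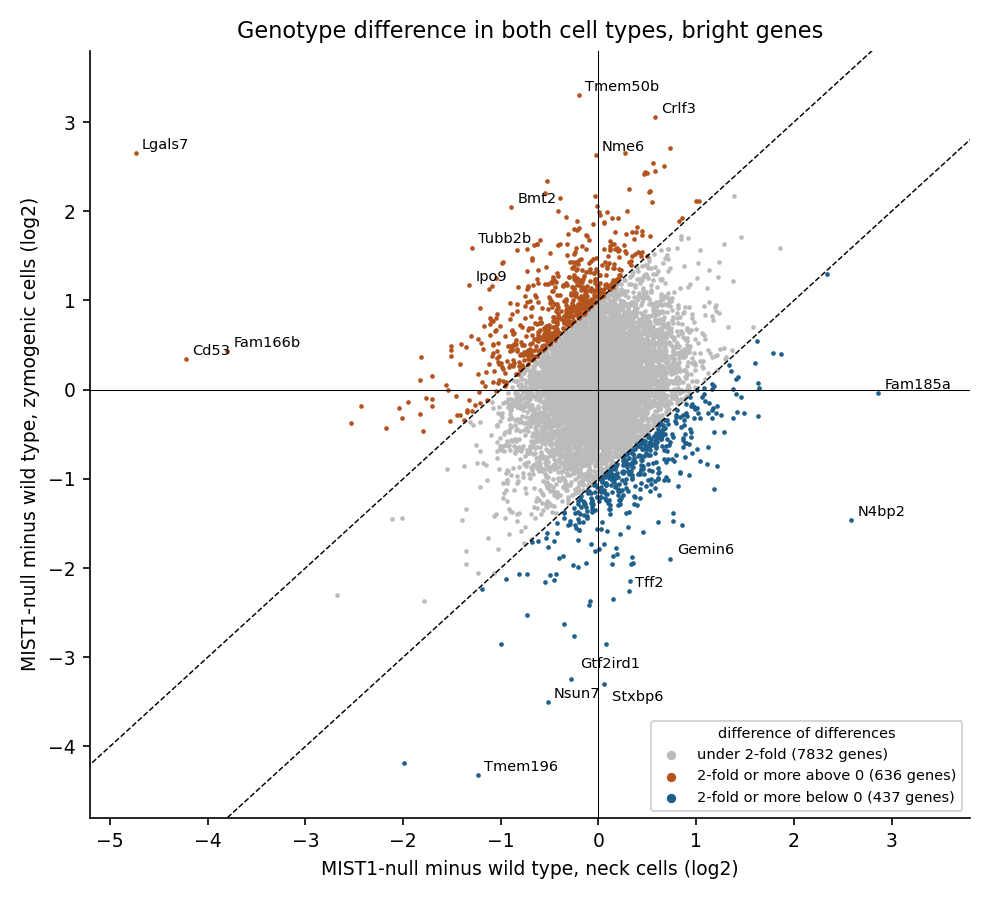
Each point is 1 bright gene, placed by its MIST1-null minus wild-type log2 difference in neck cells (x axis) and in zymogenic cells (y axis), with 1 array per group; dashed lines mark a difference of differences of 2-fold. The 636 genes above the upper line and the 437 below the lower line spread further along the zymogenic axis than along the neck axis, with Lgals7 far at the upper left and N4bp2 at the lower right.

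More called genes differed mainly in zymogenic than mainly in neck cells. Over all probe sets naming 1 gene, log2 values had a Pearson r of 0.948 between the neck arrays and 0.908 between the zymogenic arrays. The null zymogenic array had 0.913 with wild-type neck and 0.918 with null neck. With 1 array per group, a genotype difference and an unlike array cannot be told apart. Of the 636 bright genes above the 2-fold line, 231 differed by 2-fold or more in zymogenic cells and by less than 0.5 (log2) in neck cells, 54 showed the converse, and 135 were opposed, with differences of at least 0.5 in size and opposite sign. The corresponding numbers among the 437 below were 148, 38 and 91. The measure alone does not say which array it comes from, so the array was sought whose gap to its nearest neighbour exceeded the range of the other 3. In 262 of the 636 (41.2%) this was the wild-type zymogenic array, at the low end. The null zymogenic array stood high in 64 (10.1%), null neck low in 61 (9.59%) and wild-type neck high in 35 (5.50%) of them. Over all bright genes these shares were 6.79%, 5.92% and 3.96%. Below 0, the wild-type zymogenic array stood high in 108 (24.7%) and the null zymogenic array stood low in 99 (22.7%) of 437. Over all bright genes these shares were 8.46% and 6.61%. Over all bright genes the wild-type zymogenic array stood low in 13.7% and was the lowest of the 4 in 33.3%, so this array was more often the lowest than any other before any call.

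**Figure D2:**
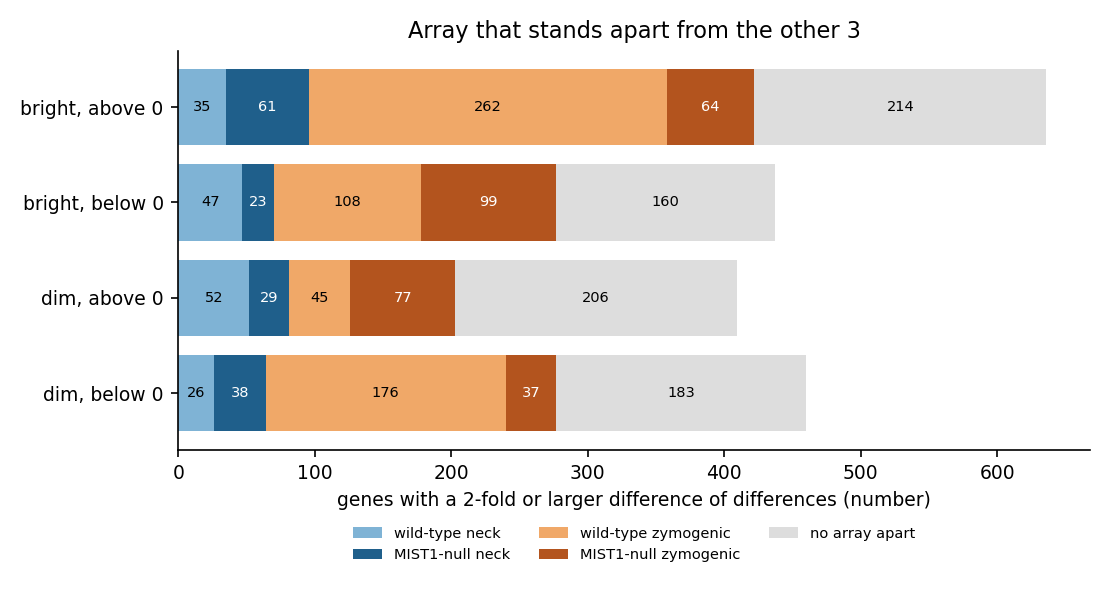
Bars count the genes with a difference of differences of 2-fold or more, split by brightness and direction, and colours give the array whose value stands apart from the other 3 (grey where none does). The wild-type zymogenic array makes up 262 of 636 bright genes above 0 and 176 of 460 dim genes below 0.

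Among bright genes reaching an intensity of 80.9, the 75th percentile, and leaving out predicted genes, receptor families, histones and small RNAs, the 12 highest values ran from 2.47 to 7.38. Lgals7, a galectin of stratified epithelia, read 122 in wild-type neck, 4.58 in null neck, 48.4 in wild-type zymogenic and 304 in null zymogenic cells. Null neck cells were the lowest and null zymogenic cells the highest, with genotype differences of -4.73 and 2.65. Cd53, a tetraspanin of leukocytes, read 118, 6.3, 56.7 and 72.1 in the same order, and Fam166b read 68.2, 4.91, 64.5 and 87.3. In both, the null neck array alone was low, and the values of 4.57 and 4.23 became 2.20 and 1.75 once a pseudocount of 32 was added before the log. Lgals7 was at 4.14 with the pseudocount, and its zymogenic genotype difference at 2.06. The sizes of Cd53 and Fam166b therefore rest on an intensity close to the bottom of the range, and that of Lgals7 does so in part.

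Tmem50b, a membrane protein gene of the secretory pathway, showed the converse arrangement. It read 366 in wild-type neck, 318 in null neck, 52.9 in wild-type zymogenic and 521 in null zymogenic cells, so that the wild-type zymogenic array alone was low and the difference of differences was 3.50. Bmt2 read 344, 185, 46.2 and 192, again lowest in wild-type zymogenic cells, at 2.95. The valyl-tRNA synthetase gene Vars2 (2.75), the zinc finger gene Zfp607b (2.86) and the cytokine receptor-like Crlf3 (2.47) shared that pattern, with 14.3, 20 and 14.7 in the wild-type zymogenic array against 65.6 to 121.7 in the other arrays. The null zymogenic array instead stood high for the tubulin gene Tubb2b, at 197 against 29.1 to 71.5, and for the nucleoside diphosphate kinase Nme6, at 228 against 36.8 to 71.5. Bcas3 (2.54) and the nuclear import receptor Ipo9 (2.50) had no array apart. Among these 12 genes, 5 had the wild-type zymogenic, 3 the null neck and 2 the null zymogenic array apart.

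The 12 lowest values of the same selection ran from -4.05 to -2.37. N4bp2 read 55.5 in wild-type neck, 334 in null neck, 230 in wild-type zymogenic and 83.8 in null zymogenic cells. Genotype thus went opposite ways, by 2.59 and -1.46, and all 4 values were above the level. Stxbp6, which encodes a SNARE-binding protein of vesicle fusion, read 383, 398, 272 and 27.6, with the null zymogenic array far below the other 3 and a difference of differences of -3.35. Tff2, the trefoil peptide secreted with neck mucus, was the brightest of the 12, at 3088 in wild-type neck, 3827 in null neck, 1320.4 in wild-type zymogenic and 277 in null zymogenic cells. Its difference between cell types was -1.23 in wild-type and -3.79 in null mice, and the difference of differences of -2.56 was -2.44 with the pseudocount. In captured cells, fewer cells of a type and less RNA per cell cannot be told apart.

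A low null zymogenic array was also seen for Tmem196 (6.64 against 50.8 to 133), the transcription factor gene Gtf2ird1 (12.8 against 57.5 to 121), Teddm3 (12.6 against 55.3 to 91.2) and the diphthamide enzyme gene Dph5 (30.5 against 75.9 to 135). For Nsun7, an RNA methyltransferase family gene, values were 78.6, 54.8, 249 and 22. Fam185a differed through neck cells, reading 41.4 in wild-type and 301 in null neck cells and 80.8 and 78.8 in zymogenic cells. Mphosph10, a nucleolar protein gene, was high in wild-type zymogenic cells, at 306 against 60 to 122. The SMN complex gene Gemin6 (-2.63) and Uprt (-2.37) completed the group. Of all 24 genes, 16 had 1 array below the level, and with the pseudocount 8 of the 12 highest and 8 of the 12 lowest were again among the 12 furthest out.

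**Figure D3:**
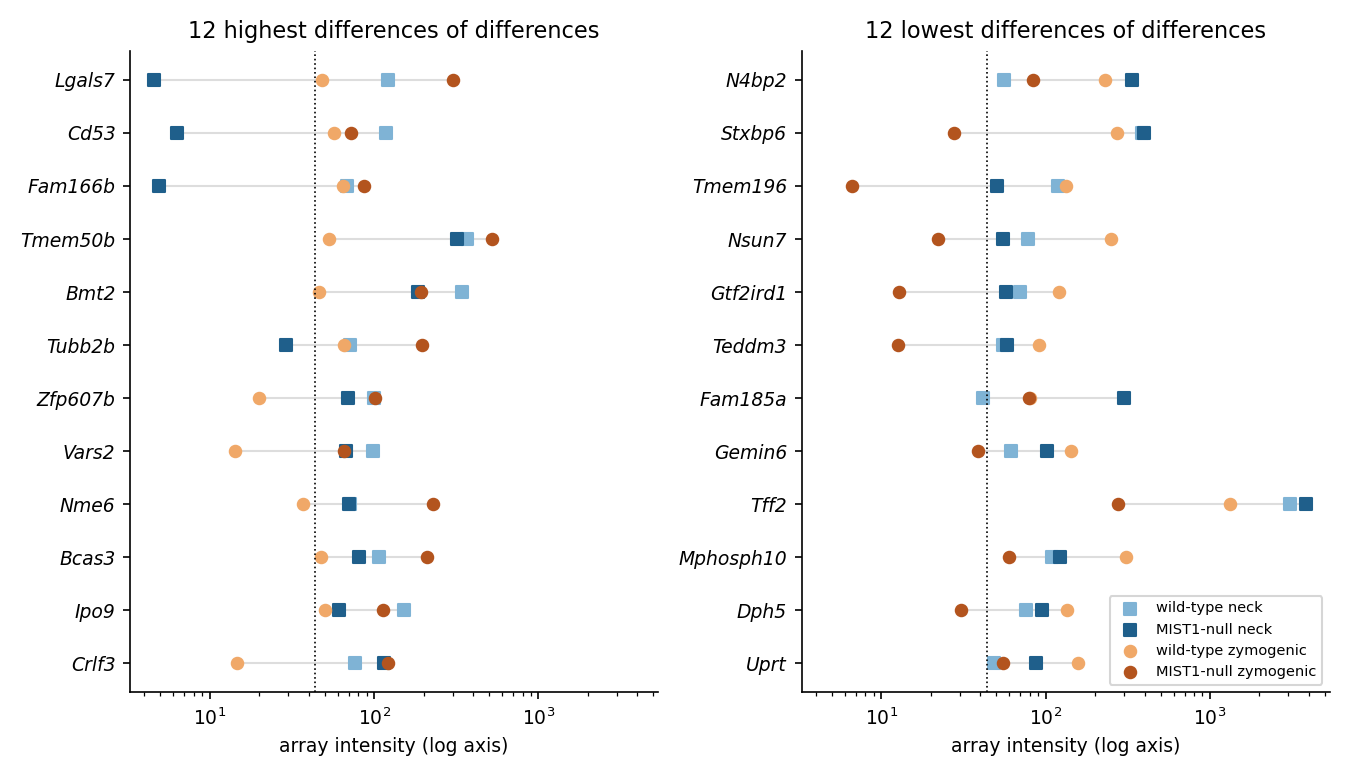
Array intensity (log axis) of the 12 named bright genes with the highest (left) and the 12 with the lowest (right) difference of differences; squares are neck and circles zymogenic cells, dark symbols are MIST1-null, 1 array each, and the dotted line is the level of 43.7. On the left the wild-type zymogenic or null neck array is mostly lowest, and on the right the null zymogenic array is lowest for most genes, including Tff2 at 277.

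The opposed genes give the clearest contrast between cell types in direction. Genes were named from those reaching the 75th percentile of intensity, without predicted genes and the like, so unnamed genes can lie further out. After Lgals7, those higher in null zymogenic and lower in null neck cells were Tubb2b (1.59 and -1.30), Ipo9 (1.18 and -1.32), Vopp1 (1.17 and -1.09) and the nucleolar GTPase gene Gnl3l (1.42 and -0.99). Gnl3l read 175 in wild-type neck, 88 in null neck, 58.8 in wild-type zymogenic and 157 in null zymogenic cells. In the other direction lay N4bp2, Pirt (-1.11 in zymogenic, 1.18 in neck), Dpagt1 (-0.96 and 0.93), Ceacam15 (-0.85 and 1.21) and Uprt (-1.51 and 0.85). Dpagt1, the enzyme that starts N-glycan assembly in the ER, read 43.7, 83.3, 180.3 and 93. By the definition of opposed, the wild-type zymogenic and null neck values were both the higher, or both the lower, of their own cell type's pair.

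Just inside the 2-fold line above 0 were Ctse and Capn1, and just outside it Necap1 and Atf6, each at 1.00 after rounding. Below 0, Dnajc22 and Pdzrn3 lay just inside and Sost and Shtn1 just outside, alike to 2 decimals. Ctse, a gastric aspartic protease, read 1536, 2166, 623 and 1757, again lowest in wild-type zymogenic cells. Calls were not spread evenly over brightness: with bright genes split into 4 equal groups by mean level, 11.6% were called in the lowest, 14.5% and 13.3% in the next, and 8.81% in the brightest. Among the 7102 bright genes with all 4 values at the level, 353 were 2-fold above 0 and 273 below, or 8.81%, against 24.8% of the 1803 with 1 value under it. In 201 of the 447 called genes of that second kind the wild-type zymogenic array held the low value. The share among all 1803 was not worked out, and over all bright genes this array was the lowest in 33.3%.

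Dim genes were called more often and split the other way. Of 4030 genes, 409 (10.1%) were 2-fold above 0 and 460 (11.4%) below, 21.6% together, with a median of -0.01 and an SD of 0.86. Of the 4030, 2232 had a single value at the level, and 525 of these were called. Among the 460, the wild-type zymogenic array stood high in 176 (38.3%), against 14.9% of all dim genes, and 145 differed by 2-fold in zymogenic cells with less than 0.5 in neck cells. A high wild-type zymogenic value can both admit a dim gene and pull its difference of differences below 0. The filter thus shapes these shares, and they are given as a description only. Of those reaching the 75th percentile of intensity, the trypsin inhibitor gene Spink1 was the lowest after the same exclusions, at 38.7 in wild-type neck, 51.9 in null neck, 319 in wild-type zymogenic and 36 in null zymogenic cells, a difference of differences of -3.57. Wild-type zymogenic cells were far the highest, and of the other 3 arrays the null neck array was just above the level. Dennd1a (-3.40), Taf1b (-3.37), Slc10a5 (-3.31) and the ciliary gene Hyls1 (-3.19) followed, each highest in wild-type zymogenic cells. At the other end of the same selection St6gal1, a sialyltransferase, read 73.5, 31.6, 15 and 84.8, with opposite genotype differences of -1.22 and 2.50 and a value of 3.71. AB124611 (3.10), the lysosomal gene Mfsd8 (108, 26.8, 34 and 67.2), the centromere gene Cenpl (2.53) and the leukocyte adaptor gene Fyb (2.47) came next. With 2 or more values below the level in each, sizes are not firm, and with the pseudocount St6gal1 was at 2.04 and Spink1 at -2.61.

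Genes reported as activated by MIST1 in secretory cells, recalled from earlier work and not checked here, were lower in null zymogenic cells with little difference in neck cells. All 4 bright members had a difference of differences below 0, with a median of -0.87 against 0.05 over all bright genes, and 1 was past 2-fold where 4.91% of bright genes were. Copz2, a coat protein of Golgi vesicles, read 133 in wild-type neck, 129 in null neck, 396 in wild-type zymogenic and 113 in null zymogenic cells. Its value was -1.76, and the 3 other arrays lay within 113 to 133. Ccpg1, a receptor for ER turnover, read 213, 227, 374 and 204 (-0.97), and the ubiquitin ligase Mib1 read 72.8, 81.5, 158 and 104 (-0.76). The connexin Gjb1 differed in another way, with 56.6, 51.6 and 56.7 in the first 3 arrays and 35.3 in null zymogenic cells (-0.55). Of the remaining 3, the granule GTPase Rab26 was dim at -0.37, and Rab3d and Atp2c2 were below the level in every array.

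As MIST1 binds E-boxes, promoters of called genes were searched for the general form CANNTG and, within it, for the forms CATATG and also CAGCTG. Each reads the same on both strands, and a match of either special form is also a match of the general form. Windows were taken from RefSeq (GRCm38.p6), each 300 bases long from 250 before to 50 after a gene's start. Of the 437 bright genes below the 2-fold line 354 had windows, 434 in all, of which 0.461% held CATATG, 14.3% CAGCTG and 64.7% CANNTG. For the 636 above the line, over 667 windows, the shares were 2.40% and 14.1%, and 427 windows held CANNTG. Over all bright genes they were 1.77%, 14.7% and 64.2%, and over all 32851 windows given 3.91%, 16.3% and 72.3%. The called genes' shares of CAGCTG and CANNTG thus lay within 1 percentage point of those of all bright genes, and CATATG was in 2 of 434 windows below the line. Those 2 belong to the exocytosis GTPase Rab27a and to Fbll1, and they are shown with a Gjb1 window that holds CATATG and with the Copz2 window. Gjb1 was not past 2-fold and was added as a reported target. Other windows of Gjb1 and of Rab27a held no CATATG. Above the line 16 of 667 windows held CATATG, and these are not shown. Each window shown is the 250 bases before a start, 5′ to 3′ on the gene's strand, with CANNTG matches in capitals.
Rab27a, chr9:73063898-73064147, plus strand: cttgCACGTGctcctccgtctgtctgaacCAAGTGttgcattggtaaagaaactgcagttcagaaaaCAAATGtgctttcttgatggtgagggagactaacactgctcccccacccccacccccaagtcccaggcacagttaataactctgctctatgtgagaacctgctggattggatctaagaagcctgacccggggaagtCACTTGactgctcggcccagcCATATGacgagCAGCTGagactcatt
Fbll1, chr11:35798885-35799134, minus strand: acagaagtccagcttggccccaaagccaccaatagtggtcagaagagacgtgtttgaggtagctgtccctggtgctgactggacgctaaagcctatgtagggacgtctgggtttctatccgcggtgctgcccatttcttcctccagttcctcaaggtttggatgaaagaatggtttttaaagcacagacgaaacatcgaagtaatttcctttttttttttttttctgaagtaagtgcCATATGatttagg
Gjb1, chrX:101383482-101383731, plus strand: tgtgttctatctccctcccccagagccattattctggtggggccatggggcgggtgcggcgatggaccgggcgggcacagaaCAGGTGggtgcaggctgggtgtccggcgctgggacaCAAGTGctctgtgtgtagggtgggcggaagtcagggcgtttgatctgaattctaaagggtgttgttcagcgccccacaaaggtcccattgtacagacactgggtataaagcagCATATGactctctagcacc
Copz2, chr11:96849626-96849875, plus strand: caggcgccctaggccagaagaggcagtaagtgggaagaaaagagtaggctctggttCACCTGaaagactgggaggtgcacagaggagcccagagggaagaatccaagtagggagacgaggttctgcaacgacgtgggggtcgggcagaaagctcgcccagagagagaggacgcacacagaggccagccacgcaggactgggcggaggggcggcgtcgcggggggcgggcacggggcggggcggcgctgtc

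CATATG began 26 bases before the start shown for Rab27a, 13 before that of Fbll1 and 19 before that of Gjb1. Rab27a read 47.3, 83.1, 69.8 and 32.9 in wild-type neck, null neck, wild-type zymogenic and null zymogenic cells (-1.90), and Fbll1 read 66.3, 96.7, 109.9 and 71.8 (-1.16). A match is a description of these letters and not a bound site. The Copz2 window held 1 CANNTG match, CACCTG.

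Regulated exocytosis genes as a group stayed near 0. Their 28 bright members had a median of 0.05, with 15 above and 13 below 0, 1 past 2-fold above and 2 below, shares close to or under the 7.14% and 4.91% of all bright genes. Those 2 were Stxbp6 and Rab27a, and the one above was the SNARE gene Snap29 (218, 118, 83.7 and 134 in the same order, 1.56).

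The bright digestive products of zymogenic cells had small differences of differences. The 3 members were Pgc (0.10), Cblif, gastric intrinsic factor (0.21), and the acidic chitinase Chia1 (0.41). Cblif read 2373 and 2120.4 in neck and 4882 and 5029 in zymogenic cells, wild type before null. Besides Bhlha15, which was kept on the same list, the dim members were Pga5 (-1.08), Gpx3 (1.11) and Cpb1 (1.14), and Lipf and Cym were below the level in every array. Pancreatic-type enzymes were less even: the lipase genes Pnliprp1 (116, 28.7, 240.1 and 193) and Cel (47.3, 17.2, 74.8 and 71.3) were low in null neck cells, at 1.69 and 1.39, whereas Pnliprp2 read 993, 857, 2027 and 1027 (-0.77). The 6 bright members had a median of 0.50.

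Tff2 and 2 further products of mucous neck cells differed more between the cell types in null than in wild-type mice, while other markers were near 0. Of 7 bright mucous neck cell markers, 5 were below 0 with a median of -0.51. There were 3 past 2-fold below, where 4.91% of all bright genes were, and none above. Besides Tff2 these were A4gnt, which caps gland mucin sugars, and Gkn3. A4gnt read 378 in wild-type neck, 536 in null neck, 63.6 in wild-type zymogenic and 35.6 in null zymogenic cells (-1.34). Gkn3 read 594, 967, 59.8 and 40.7 (-1.26). The null zymogenic values of A4gnt and Gkn3 were below the level, so their sizes are less firm than that of Tff2. With the pseudocount A4gnt was at -0.97, short of 2-fold, and Gkn3 at -1.01, against -2.44 for Tff2. In each of these genes the null array was higher in neck and lower in zymogenic cells. Agr2, a folding enzyme for mucins, showed the same order at a smaller size (2979, 3472, 273 and 223, -0.51), as did the mucin gene Muc6, which is dim through its zymogenic values (-0.61). Spdef (-0.03), the water channel Aqp5 (0.02) and Pdia5 (0.09) were near 0. Summed over all 9 markers, intensity was 9839 in wild-type neck, 12025 in null neck, 2045 in wild-type zymogenic and 869 in null zymogenic cells. Within the 2 zymogenic sums, Tff2 alone gave 1320.4 in wild-type and 277 in null cells.

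Enzymes that build mucin sugars partly ran the same way. Of 20 bright members 13 were below 0, with a median of -0.22, and 4 were past 2-fold below and 1 above, against 4.91% and 7.14% of all bright genes. The 4 were B4galt1 (176, 216, 149.9 and 68.1, -1.44), Fut4 (92.6, 178, 89 and 64.3, -1.41), A4gnt and Galnt7 (553, 872, 246 and 182, -1.09). Fut4 stood apart in the null neck array and B4galt1 in the null zymogenic array. Galnt1, which adds the first sugar of O-glycans, was the one above (1.01).

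Most parietal cell markers had a difference of differences above 0. These belong to the acid-secreting cells of the gland. Of 18 bright members 15 were above 0, with a median of 0.68, and 5 were past 2-fold above (7.14% over all bright genes) and none below. Atp4a, the proton pump catalytic subunit, read 3514 in wild-type neck, 3932 in null neck, 2278 in wild-type zymogenic and 3955 in null zymogenic cells (0.63). The nuclear receptor gene Esrrg read 423, 489, 123 and 363 (1.35), Kcne2 read 992, 1009, 499.9 and 1038 (1.03), Kcnj15 read 353, 358, 227 and 478 (1.06) and Aqp4 read 66, 40.6, 44.7 and 88.8 (1.69). Wild-type zymogenic cells gave the lowest value for 14 of the 18, against 33.3% of all bright genes. Summed over all 20 markers the intensity was 13859, 15753, 7293 and 12575, so the wild-type zymogenic array held the least parietal cell signal while the other 3 were closer together.

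Mitochondrial genes followed the same order of arrays. Oxidative phosphorylation genes, of the respiratory chain and ATP synthase, were above 0 in 46 of 50 bright members with a median of 0.40, and 42 of 50 were lowest in wild-type zymogenic cells, against 53.6% above 0 and 33.3% lowest there over all bright genes. Their sizes were modest, with 3 past 2-fold above and none below, a share no higher than the 7.14% of all bright genes. These were Uqcrq (321, 281, 208 and 398, 1.13), Cox8a (614, 488, 370.0 and 629, 1.10) and Ndufs8 (166, 116, 78.5 and 114, 1.05). Regulators of mitochondria and enzymes of fatty acid oxidation had a median of 0.56, with 16 of 19 above 0 and 5 past 2-fold above, against 7.14% of all bright genes. With the filter at the 75th percentile, which keeps fewer of them, the median was 0.27. The coactivator gene Ppargc1a read 213 in wild-type neck, 355 in null neck, 106 in wild-type zymogenic and 696 in null zymogenic cells, and its value was 1.98. Null zymogenic cells were the highest for this gene and no array stood apart. Its relative Ppargc1b (130.0, 111, 40.9 and 95.3, 1.45), the fatty acid oxidation enzymes Eci1 (113, 99.3, 46.1 and 100.1, 1.30) and Hadhb (563, 556, 239 and 524, 1.15) were instead low in the wild-type zymogenic array alone. In this second set 15 of 19 were lowest there. Parietal cells are rich in mitochondria, and the part of the parietal cell signal in these values was not tested.

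Endocrine markers, from the hormone cells scattered through the gland, had a median of 1.10 over 7 bright members, 6 of them above 0 and 4 past 2-fold above, where 7.14% of all bright genes were. Under quantile normalization the median was 0.89, short of 2-fold. The peptide hormone gene Sst read 885 in wild-type neck, 251 in null neck, 2079 in wild-type zymogenic and 2686 in null zymogenic cells (2.19). The granin genes Chga (217, 76.4, 896 and 1166, 1.89) and Chgb (225, 98, 1223 and 1757, 1.72) and the hormone gene Ghrl (4371, 3214, 4428 and 6972, 1.10) had the same order. Each was lower in null than in wild-type neck cells and higher in null than in wild-type zymogenic cells. Summed over the 17 members read, the intensity was 6225, 4082, 9640 and 13756.

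Markers of fibroblasts and smooth muscle ran alike, with 12 of 13 bright members above 0, a median of 0.72 and 5 past 2-fold above, against 7.14% of all bright genes. With the pseudocount the median was 0.41. The null neck array was the lowest of the 4 in all 13, against 23.0% of all bright genes. Vim (109, 51, 195 and 336, 1.88), the smooth muscle calponin Cnn1 (47.9, 10.6, 173 and 129, 1.75), Pdgfra (44, 31.2, 83 and 167, 1.51) and the collagen gene Col3a1 (62, 33.1, 124 and 175, 1.40) were the furthest. Summed over 18 members the intensity was 1044, 747, 2306 and 2733. Immune markers had a median of 0.15 over 8 bright members, with H2-Aa at 0.96. Only Cd53 was past 2-fold, where 7.14% of all bright genes were past it above. The sum of the immune markers was 848, 648, 1265 and 1109. Cd53 thus stood alone among the bright immune markers at 4.57, while the general leukocyte marker Ptprc was at 0.73. The leukocyte adaptor gene Fyb, which was dim and not on this list, was at 2.47. Endothelial markers had 3 bright members with a median of 0.47, red blood cell genes 1 at 0.20 and enteric neuron and glia markers 1 at -0.72.

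Lgals7 was likewise larger than other genes of stratified squamous epithelium. Besides it, Sprr1a (53.4, 44.8, 82.1 and 155) was at 1.17, Krt14 at 0.69 and Ivl at 0.14, and the median over 4 bright members was 0.93. Krt5, Trp63, Krt4, Sprr3, Dsg3 and Lor were below the level in every array.

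**Figure D4:**
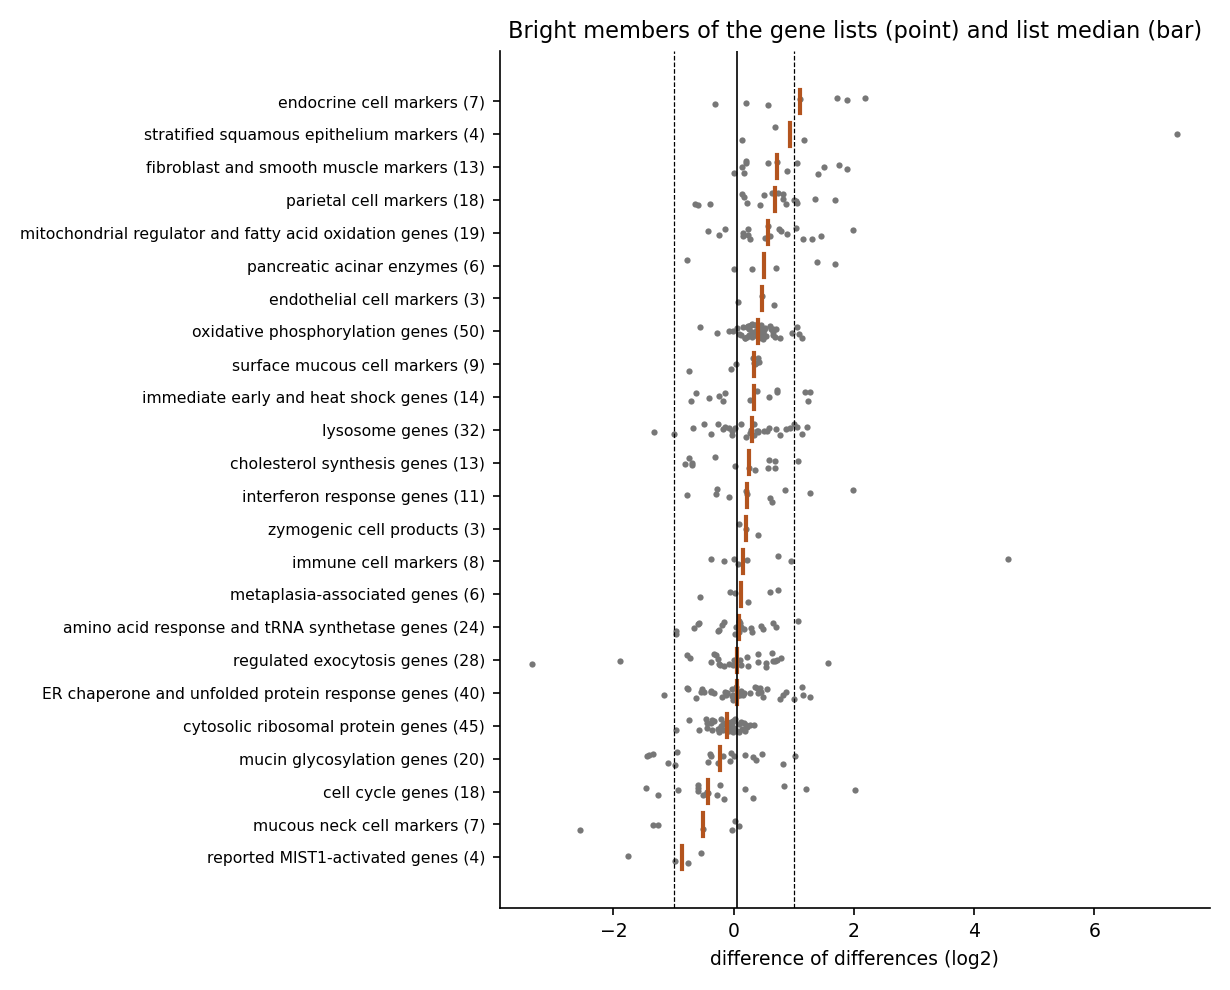
Points are the bright members of each gene list (number in brackets) at their difference of differences on the log2 scale, orange bars the list medians, the solid line the median of all bright genes (0.05) and dashed lines 2-fold. Endocrine, stromal and parietal markers and mitochondrial genes lie to the right, and mucous neck markers, cell cycle genes and reported MIST1-activated genes to the left.

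Protein folding genes of the ER were centred on 0 as a list, with 21 of 40 bright members above and 19 below and a median of 0.05. Of the 40, 3 were past 2-fold above and 1 below, against 7.14% and 4.91% of all bright genes: Sdf2l1 (70.4, 52.7, 57.4 and 103, 1.27), the mannosidase-like Edem1 (97.8, 84.8, 62.9 and 122, 1.16) and the stress kinase gene Eif2ak3, PERK (144, 118, 98.2 and 177, 1.14), lay past 2-fold above, and Edem3 (238, 268, 446 and 225, -1.16) past it below. Edem1 and Edem3, related factors of ER-associated degradation, thus ran opposite ways, with wild-type zymogenic cells lowest for Edem1 and highest for Edem3. The main ER chaperone Hspa5 was higher in null cells of both types, at 1204, 1525, 1709.9 and 2349.8 (0.12). Amino acid response and tRNA synthetase genes had a median of 0.08 over 24 bright members. Only the stress gene Nupr1 was past 2-fold (1312, 667, 4322 and 4614, 1.07), where 7.14% of all bright genes were past it above. Lysosome genes had a median of 0.31, with 21 of 32 above 0, against 53.6% of all bright genes, and the median was 0.20 with the pseudocount. Past 2-fold were 4 above and 1 below, where 7.14% and 4.91% of all bright genes were. The cholesterol carrier Npc2 (1.23), the proton pump subunits Atp6v1a (1.14) and Atp6v0d1 (1.01) and Psap (1.06) were above, and Laptm4b (-1.32) below. In 15 of the 32 the wild-type zymogenic array was lowest, against 33.3% of all bright genes.

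Cell cycle genes tended below 0, with 13 of 18 bright members there and a median of -0.43, but 2 were past 2-fold in each direction, against 7.14% above and 4.91% below over all bright genes. The mitotic kinase Cdk1 read 68, 99.8, 102 and 54.4 (-1.46) and the replication helicase subunit Mcm7 read 44.4, 81.3, 56.9 and 43.4 (-1.27). Against them, the S phase cyclin Ccne2 read 99.9, 75.9, 27.9 and 86.2 (2.03) and Birc5 read 284, 318, 19.6 and 50.4 (1.20). In 11 of the 18 the null neck array was highest, against 24.5% of all bright genes. A further 17 members were dim, most of them with both zymogenic arrays below the level, such as Ckap2 (29.7, 86.3, 10.8 and 4.37, -2.85).

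Cytosolic ribosomal protein genes differed little, with a median of -0.10 and none of 45 past 2-fold, although 32 were below 0. In 29 the null zymogenic array was lowest, against 21.1% of all bright genes. Surface mucous markers (median 0.34, 7 of 9 above 0) had no member past 2-fold. Metaplasia-associated genes had none among 6 bright members (median 0.13), but 2 dim members, Wfdc2 (119, 369, 40.6 and 29.6, -2.09) and Olfm4 (19.9, 61.5, 39 and 31.6, -1.93), were high in the null neck array. Interferon response genes had a median of 0.23 over 11 bright members, 2 of them past 2-fold above, the peptidase Erap1 (68.9, 101, 22.8 and 133, 1.99) and the proteasome subunit Psmb9 (1.26), with the median between 0.13 (pseudocount) and 0.42 (mean over probe sets) under the alternatives. Immediate early and heat shock genes had a median of 0.34 over 14, with Dusp1 (1.28), Jund (1.24) and Btg2 (1.19) past 2-fold, and cholesterol synthesis genes 0.26 over 13, with Sqle (133, 240.1, 38.3 and 145) at 1.06. For the members of these and the interferon lists past 2-fold above, the share over all bright genes was 7.14%.

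Genes read by several probe sets gave a check on the probes, though not on the animals, since the probe sets share arrays and RNA and may share probes. Of 533 genes with 2 or more bright probe sets, the brightest and the next had the same sign in 370 (69.4%), with a Pearson r of 0.39 across genes and a median gap of 0.26. Of 59 genes called on the brightest, 40 had the same sign and 18 the same call on the next. Some pairs had identical values, such as Vma21 (-1.05 on both) and Ggh (-1.09 on both). These counts and the r therefore include repeated readings, and agreement between separate probes was not worked out. Tmx2, a thioredoxin-related protein of the ER, was at 2.38 and 2.41, Gpx4, which detoxifies lipid peroxides, at 1.85 and 1.72, and Ppargc1a at 1.98 and 1.38. Tmem196 was at -3.09 on the brightest and at -0.03 on the next, so its place among the lowest genes rests on 1 probe set. Gemin6 had a second, dimmer probe set at -1.03, Nme6 one at 0.72 that was below the level in every array, and Uprt one at 0.50, opposite in sign to the -2.37 above.

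**Figure D5:**
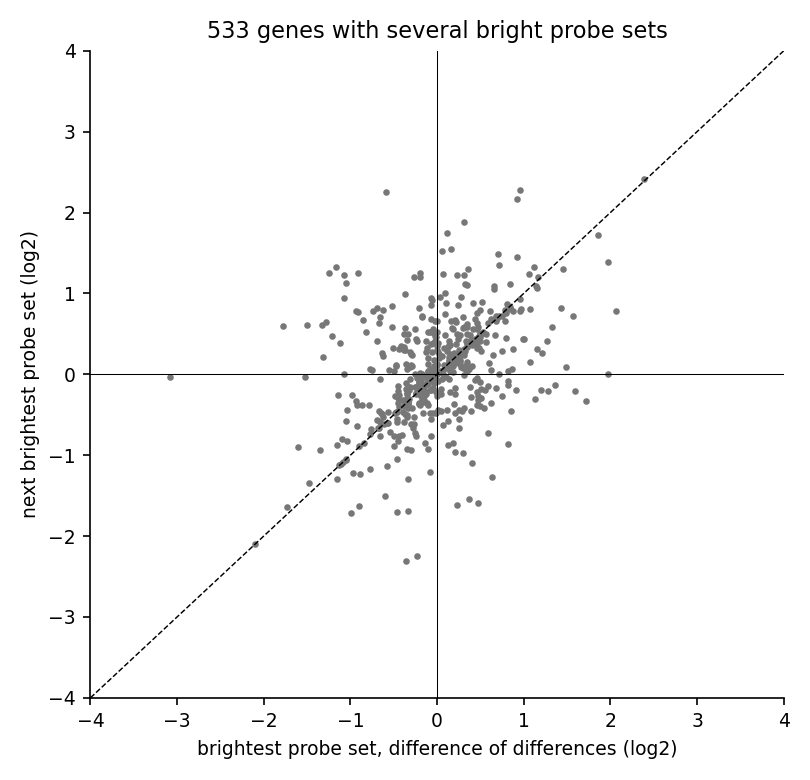
Each point is 1 of 533 genes with several bright probe sets, with the difference of differences (log2) of its brightest probe set on the x axis and of the next brightest on the y axis; the dashed line marks equal values. Many points follow the line near 0, and others scatter off it, such as Tmem196 at -3.09 against -0.03.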

How the data were processed

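The authors deposited 1 linear intensity per probe set and array, and used dChip for quality control and comparison of arrays, per the series' design text. Background and scaling settings are not stated there. Of 35512 probe sets, 21789 named exactly 1 gene in the platform annotation and were used, while 1621 named several and 12102 were not listed. Entrez identifiers of 21698 were matched to RefSeq (GRCm38.p6). Where several probe sets read a gene, the brightest by mean log2 value was used. Values were set to at least 1 and log2 transformed, although no used value was that low. Named genes were the 12 highest and 12 lowest bright genes and the 5 highest and lowest dim genes reaching the 75th percentile (an intensity of 80.9), without predicted, receptor-family, histone or small RNA symbols, and 5 opposed genes each way. List genes named outside the 2-fold members, 4 per list, were chosen after their values were seen. Members and lists were chosen with earlier results of these data known. Each group was 1 array, so the number of arrays limits the precision. The calculation was tested on simulated data. Alternatives used limma 3.58.1 in R 4.3.3 and Python 3.11.15.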

Additional observations from a re-analysis of the deposited data

Results flagged for a closer look

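The 10 genes picked for naming as opposed had a genotype difference that ran one way in zymogenic and the opposite way in neck cells. They are not a full count: other named genes, such as Bmt2 and Gemin6, also ran opposite ways and are not listed here. With 1 array per group these opposite directions were not tested. Higher in null zymogenic and lower in null neck cells were Lgals7, with a difference of differences of 7.38, Tubb2b (2.89), Ipo9 (2.50), Gnl3l (2.41) and Vopp1 (2.26). Lower in null zymogenic and higher in null neck cells were N4bp2 (-4.05), Uprt (-2.37), Pirt (-2.29), Ceacam15 (-2.07) and Dpagt1 (-1.89). For Uprt, a dimmer probe set gave 0.50.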

How the results depend on the processing

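Depth in the sense of signal over background is unknown for these arrays. No paired analysis was possible because each group was 1 array, and for the same reason no array could be left out. Quantile normalization, cyclic loess, median centring and the mean over a gene's probe sets kept each count of calls and patterns within 1.5 times, and with median centring 53.5% of bright calls lay above 0 against 59.3%. With a pseudocount of 32, bright calls numbered 396 (234 above, 162 below 0) and dim calls 166 (75 and 91), with 70 opposed, 128 mainly zymogenic, 25 mainly neck and 128 with the wild-type zymogenic array apart. With the filter at the 75th percentile, bright calls were 462 (276 and 186), with 83, 187, 35 and 178 in those patterns, and dim calls 577, of which 268 lay below 0. With no filter, dim calls were 2089 (950 and 1139). These filters change how many genes are counted. The 40 named genes kept their sign under every alternative but 1: with the next brightest probe set, an alternative chosen after seeing the data, Uprt was at 0.50, and the cause was not tested. Of the list medians, 168 of 196 moved by less than 1.5 times and none changed sign.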

Other observations

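Some bright genes with all 4 values at the level differed by about 4-fold outside the groups described, and were chosen after their values were seen. Ubxn2a read 300.3 in wild-type neck, 298 in null neck, 87.3 in wild-type zymogenic and 364 in null zymogenic cells (2.07). Its next brightest probe set was at 0.78, under 2-fold. Tex2, a lipid transfer protein gene, read 152, 130.2, 65.6 and 244 (2.12). Ugt2b34, of the glucuronidating enzymes, read 319, 354, 438 and 120.4 (-2.01). In neck cells, Sharpin, a subunit of a ubiquitin ligase for immune signalling, read 359.9 in wild-type and 66.7 in null mice, with 50.3 and 44.3 in zymogenic cells (2.25). The transporter gene Slc16a9 read 44.8 and 139 in neck and 83.6 and 68 in zymogenic cells (-1.93).

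Y-linked genes were above the level in all 4 arrays. Eif2s3y read 223 in wild-type neck, 450.3 in null neck, 398 in wild-type zymogenic and 425 in null zymogenic cells, a difference of differences of -0.92, while Kdm5d (0.10) and Uty (0.24) were near 0. Xist was below the level in each array, at 19.4 to 35.8.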
